A study of Mus musculus with 23 samples.

Results

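The response of the hippocampus to hypoxia that mice with and without a tau transgene had in common was measured by RNA-seq. It was taken as the difference between all 12 hypoxia libraries and all 11 normoxia libraries in a model with genotype as a covariate, which uses all 23 libraries of the series. The hypoxia libraries were 6 from P301S mice and 6 from wild-type (WT) mice, and the normoxia libraries were 5 from P301S mice and 6 from WT mice. P301S is a tau mutation of inherited frontotemporal dementia, and neurons of mice that express the mutant protein accumulate tau. The title of the series calls the exposure chronic intermittent hypoxia, the repeated drop in oxygen that occurs in sleep apnoea. Per the labels, all mice had a mixed background of C57Bl6 and Balbc. The sources used here do not give the promoter of the transgene, the schedule of the exposure, the age of the mice or the hour of collection. Nor do the labels tie each library to an animal of its own, so a p-value here measures the scatter of libraries, which may be partly technical. The library titles also carry a number that the sources used here do not explain. WT normoxia replicates 1 to 5 share 66, WT hypoxia replicates 1 to 4 share 31, and WT hypoxia replicates 5 and 6 share 32. Each P301S library has its own number, and no number occurs in both conditions.

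Cells sense oxygen through hypoxia-inducible factors (HIFs), transcription factors that hydroxylases mark for breakdown while oxygen is plentiful. Their targets include genes of glucose uptake, glycolysis and vessel growth. Neurons also change transcription with electrical activity. Firing induces immediate early genes such as Fos, Egr2 and Arc within minutes, and these RNAs decay quickly once activity falls. The circadian clock acts through another loop, in which the activators BMAL1 and CLOCK drive repressors and output factors, among them Nr1d1 and Dbp, that rise and fall over the day in most tissues. Glucocorticoids, hormones of the stress response with a daily rhythm of their own, induce a further set of genes that includes Fkbp5.

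Total counts per library lay between 23.8 and 25.8 M for P301S hypoxia, 19.1 and 24.9 M for WT hypoxia, 23.1 and 25.4 M for P301S normoxia, and 22.8 and 25.8 M for WT normoxia. Of the 52636 genes in the files, 17788 had enough counts to be tested. All libraries expressed Y-linked genes (316 to 473 CPM in all, where CPM is the count scaled to library size). Libraries differed widely in choroid plexus RNA, which comes from tissue in the ventricles beside the hippocampus: Ttr, its most abundant marker, ranged from 30.1 to 3176 CPM. Of the 6 libraries lowest in choroid plexus markers, 5 were from hypoxia and 1 from normoxia. In tissue RNA of this kind, fewer cells of a type and less RNA in each cell cannot be told apart.

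Hypoxia changed 213 genes over both genotypes, 1.2% of those tested, at an adjusted p below 0.05. Of these, 103 genes (0.579%) were higher and 110 genes (0.618%) were lower. Most changes were small: the size of the log2 fold change had a median of 0.25 in the called genes, against 0.071 in all tested genes. An absolute log2 fold change of at least 0.5 was reached by 33 genes (16 higher, 17 lower), and of at least 1 by 6 genes (4 higher, 2 lower). The genes that rose with the lowest adjusted p were the clock genes Dbp and Nr1d1, the purine enzyme gene Xdh, Rasal2 and Rtl3, and the largest rises were those of the HIF family gene Hif3a and of Galnt15. The genes that fell with the lowest adjusted p were Gm35552, 1700016P03Rik and the activity genes Egr2, Fos, Nr4a1 and Arc. Gm35552 is a long non-coding RNA, and 1700016P03Rik is the host RNA of 2 activity-dependent microRNAs. In 2 genes, 0.0112% of those tested, every hypoxia library lay above every normoxia library, and these were Dbp and Galnt15. Fold changes below are log2 values, hypoxia over normoxia with genotype as a covariate, with standard errors (SE). Each adjusted p, here and below, comes from the quasi-likelihood test of edgeR, with Benjamini-Hochberg adjustment across the 17788 genes.

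**Figure D1:**
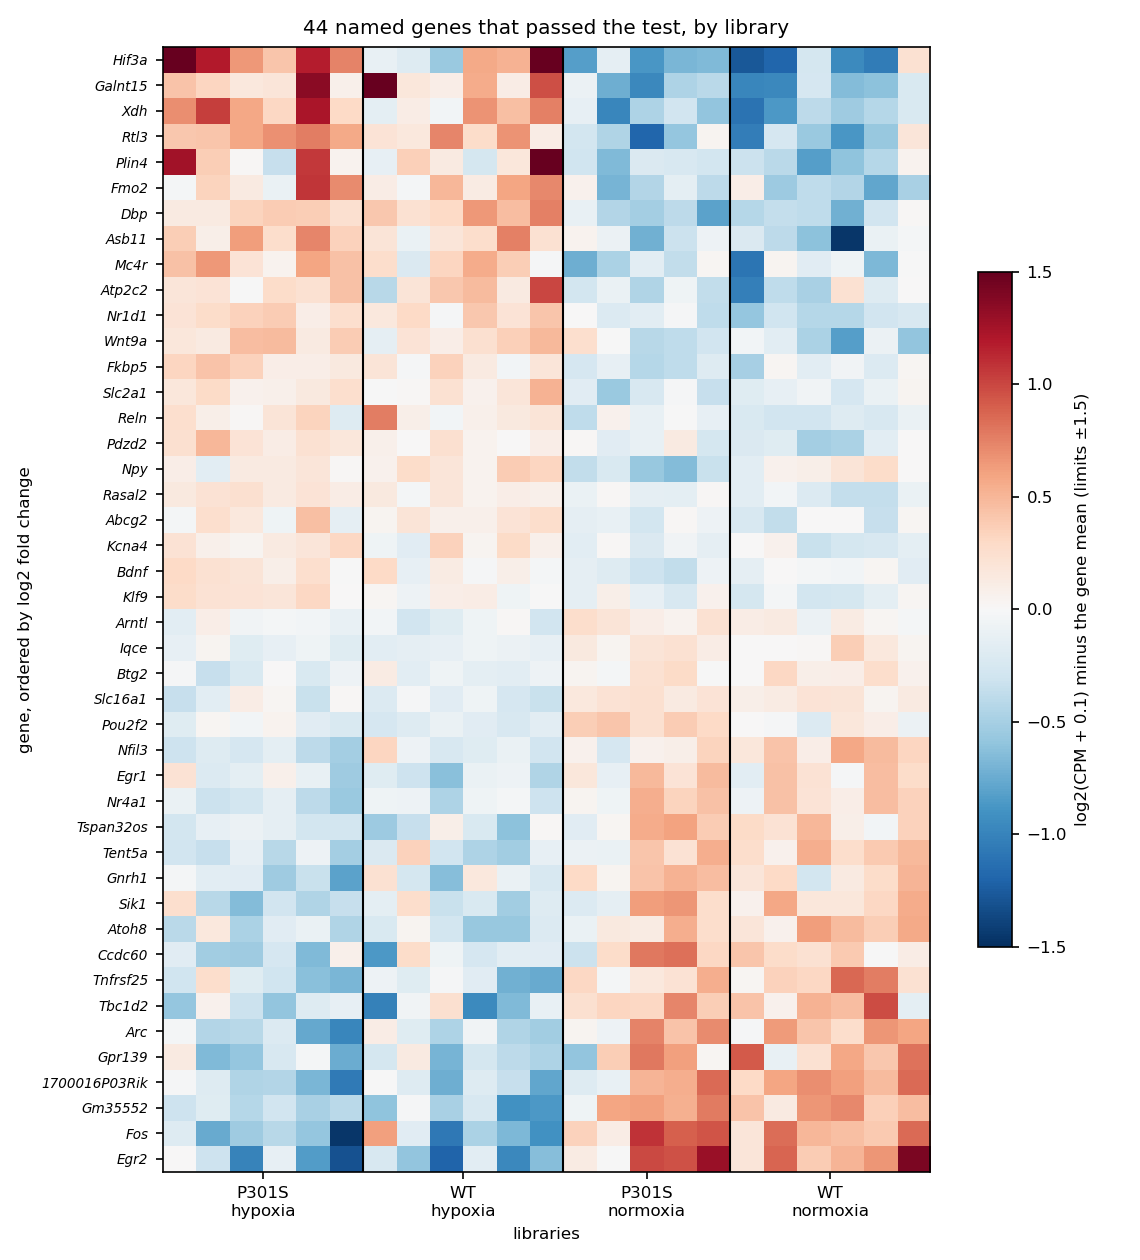
Heat map of the 44 named genes that passed the test. Rows are genes ordered by fold change, columns are the 23 libraries in their 4 groups, and colour gives log2(CPM + 0.1) minus the mean of the gene, with colours limited to ±1.5. Genes at the top are mostly red in the 12 hypoxia libraries and blue in the 11 normoxia libraries, and genes at the bottom the reverse, in P301S and in WT alike.

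Of 20 measured genes of the circadian clock, 3 rose and 2 fell, against 1.2% called among all genes, while the median fold change of the list was -0.01. Dbp, the D-box binding output factor of the clock (chromosome 7, 45705088 to 45710203, GRCm38), had 35.1, 40.9 and 54.2 CPM as lowest, median and highest values in hypoxia, and 18.3, 24.3 and 32.3 CPM in normoxia. The groups did not overlap. Its fold change was 0.77 (SE 0.0791, adjusted p = 1.31e-05), with 0.71 in P301S and 0.82 in WT. Nr1d1, the repressor REV-ERB alpha (chromosome 11, 98767932 to 98775333), had 90.8, 110 and 122 CPM in hypoxia and 61.4, 75.2 and 92.4 CPM in normoxia. The lowest hypoxia library and the highest normoxia library overlapped by a small margin. Nr1d1 rose by 0.52 (SE 0.0585, adjusted p = 3.18e-05). Its close relative Nr1d2, REV-ERB beta, chosen after its values were seen, rose by 0.30 (SE 0.0627, adjusted p = 0.0197). Parts of Dbp and Nr1d1 (14.4% and 14.5% of their length) are overlapped by Sphk2 and Thra, and the authors counted reads without regard to strand.

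The clock genes that fell act on the other side of the same loop. Arntl, which encodes the activator BMAL1 and is repressed by the REV-ERB proteins, had 47, 55.2 and 61.5 CPM as lowest, median and highest in hypoxia and 54.3, 62.3 and 69.3 CPM in normoxia. It fell by 0.20 on the log2 scale (SE 0.0416, adjusted p = 0.0179). Nfil3, a repressor at the D-box sites that DBP activates, fell by 0.41 (SE 0.0767, adjusted p = 0.00856), to 7.06, 8.70 and 12.7 CPM in hypoxia, against 8.46, 11.4 and 15.1 CPM in normoxia. The other 15 genes were not called. Among them Per2 had a fold change of 0.21 (adjusted p = 0.0953), while Per1 had -0.02 and Cry1 -0.13. With the choroid plexus score in the model, the same number of clock genes passed, 3 higher and 2 lower. Without the 6 libraries low in choroid plexus markers 4 passed, 2 in each direction.

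Of the 20 measured immediate early transcription factor genes, 6 fell and none rose, against 0.618% called lower among all genes. The median fold change was -0.25, and 18 of the 20 values were negative. Egr2, a zinc finger factor (chromosome 10, 67535475 to 67542188), had the largest decrease. Its lowest, median and highest levels were 0.813, 1.37 and 2.17 CPM in hypoxia and 2.15, 3.46 and 5.91 CPM in normoxia. A single hypoxia library reached the lowest normoxia library. Egr2 fell by 1.36 on the log2 scale (SE 0.195, adjusted p = 0.000657), by nearly the same amount in P301S (-1.34) and in WT (-1.39).

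Fos, a subunit of the AP-1 factor (chromosome 12, 85473890 to 85477273), had 3.51, 6.68 and 15.2 CPM in hypoxia and 10.7, 14.0 and 20.9 CPM in normoxia. WT hypoxia replicate 1, at 15.2 CPM, was the highest of the hypoxia libraries and stood among the normoxia values. Within P301S normoxia, replicates 1 and 2 had 12.5 and 10.7 CPM of Fos, and the other 3 libraries had 18.5 to 20.9 CPM. Fos fell by 1.12 (SE 0.175, adjusted p = 0.0031). Nr4a1, an orphan nuclear receptor (chromosome 15, 101266846 to 101274792), had 50.7, 64.6 and 72.7 CPM in hypoxia and 70.6, 94.1 and 109 CPM in normoxia, and fell by 0.49 (SE 0.0787, adjusted p = 0.00338). Egr1 fell by 0.43 (SE 0.0936, adjusted p = 0.0239), with 76.9 to 138 CPM in hypoxia and 106 to 166 CPM in normoxia. Junb and Nr4a3, chosen after their values were seen, also fell, by 0.36 (SE 0.0837, adjusted p = 0.034) and by 0.30 (SE 0.0752, adjusted p = 0.0473). Of the 23 fits with 1 library left out, Junb was called in 14 and Nr4a3 in 6. Fosb (-0.43, adjusted p = 0.0533) and Npas4 (-0.47, adjusted p = 0.0953) missed the threshold. Jun, another AP-1 subunit gene, had -0.08 over both genotypes, 0.18 in P301S and -0.31 in WT. With the choroid plexus score in the model 6 genes of the list were called, of 123 called among 17788 genes, and without the 6 libraries low in choroid plexus markers 4 were, of 64 called among 17977 genes, all of them lower.

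The effectors that act downstream of neuronal activity did not move as a block. Of 19 measured genes, 3 fell and 1 rose, against 0.618% called lower and 0.579% called higher among all genes, with a median of -0.03. Arc, a synaptic protein whose RNA travels to dendrites (chromosome 15, 74669083 to 74672570), had 62.6, 91.4 and 133 CPM in hypoxia and 117, 166 and 207 CPM in normoxia. It fell by 0.76 (SE 0.121, adjusted p = 0.00354). Sik1, a kinase that restrains CREB signalling, fell by 0.54 (SE 0.117, adjusted p = 0.0231), and Btg2, an antiproliferative gene, by 0.24 (SE 0.0546, adjusted p = 0.0307). The Btg2 call was lost in 8 of the 23 fits with 1 library left out. Bdnf, the neurotrophin gene, went the other way. It had 32.8, 38.4 and 44.0 CPM in hypoxia and 27.7, 32.6 and 36.5 CPM in normoxia, and rose by 0.25 (SE 0.0555, adjusted p = 0.0279). The Bdnf rise was 0.39 in P301S and 0.11 in WT, and the difference between them had an unadjusted p of 0.00915 and an adjusted p of 0.368. With the choroid plexus score in the model 1 of the 19 effectors was called, and likewise without the 6 libraries, in both cases lower.

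The lower genes also included 1700016P03Rik, a non-coding RNA on chromosome 11 (75172560 to 75177633, plus strand). Within it, on the same strand, the RefSeq annotation of GRCm38.p6 places the hairpins of Mir212 (75173388 to 75173478) and Mir132 (75173682 to 75173747). In neurons both microRNAs are induced by activity through CREB. The 3p arms are shown because they share a seed, bases 2 to 8, which is in capitals.
mmu-miR-132-3p: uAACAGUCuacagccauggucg
mmu-miR-212-3p: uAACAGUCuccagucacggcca
The libraries were made from mRNA, so the mature microRNAs were not measured. 1700016P03Rik itself had 4.62, 7.41 and 9.67 CPM in hypoxia and 8.48, 14.2 and 17.6 CPM in normoxia. It fell by 0.90 (SE 0.126, adjusted p = 0.000619), by 0.82 in P301S and 0.96 in WT. Of its length, 36.4% is overlapped by Ovca2 and other genes. On the chromosomes searched, which were not all, 11 called genes hold an annotated microRNA hairpin on their own strand. Of these, 1700016P03Rik was chosen for description after its values were seen.

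**Figure D2:**
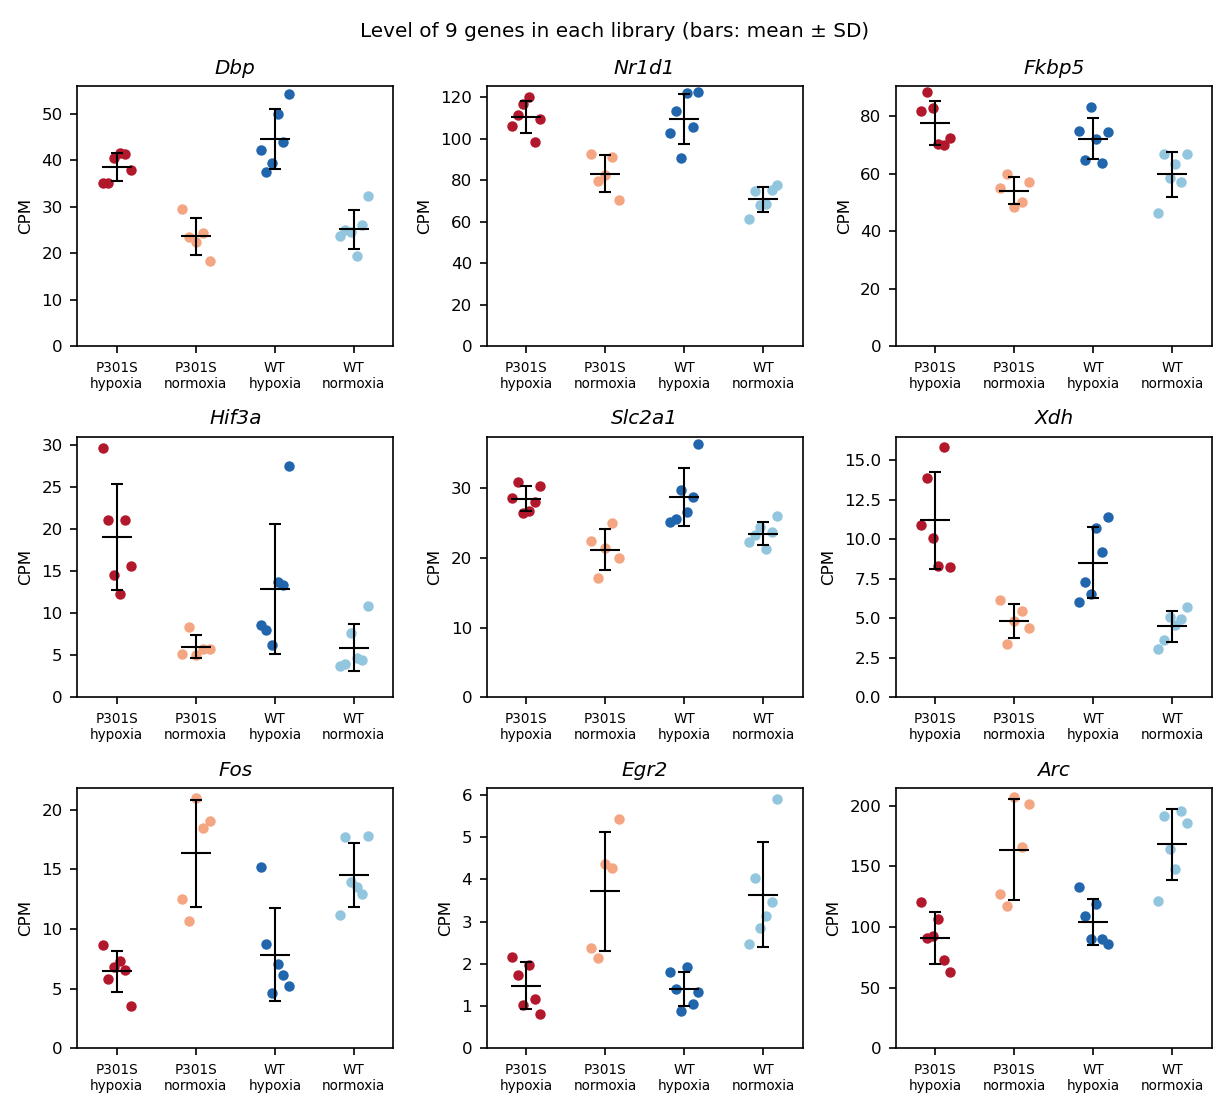
Levels in CPM (vertical axes, starting at 0) of 9 genes in every library of the 4 groups. Points are libraries, and bars give the mean ± SD of a group of 6 libraries (5 in P301S normoxia). Dbp, Nr1d1, Fkbp5, Hif3a, Slc2a1 and Xdh have higher means in hypoxia in each genotype, and Fos, Egr2 and Arc have lower means.

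Promoter letters were compared between the called genes and all tested genes, using RefSeq windows of 300 bases, from 250 before to 50 after a transcription start (GRCm38.p6). Windows were found for 81 of the 103 higher genes (105 windows), 81 of the 110 lower genes (102 windows) and 12571 tested genes (16089 windows). Both strands were searched. The CArG box, bound by serum response factor, which drives immediate early genes, was in 3.92% of the windows of lower genes, in none of those of higher genes and in 1.36% of all windows. The 4 windows of lower genes that hold it all belong to Egr2. The E-box CACGTG, to which BMAL1 and CLOCK bind, was in 12.4% of the windows of higher genes, 5.88% of those of lower genes and 9.18% of all. The D-box (TTATGTAA or TTACGTAA), bound by DBP and NFIL3, was in 2.86% of the windows of higher genes, all of them of Tex35, and in 0.796% of all. The cAMP response element TGACGTCA, bound by CREB, was in 0.952% of higher, 0.98% of lower and 2.67% of all windows. The hypoxia response core (ACGTG or GCGTG, which the E-box contains) was in 59% of higher, 55.9% of lower and 57.4% of all windows. These are counts of letters in short windows and do not show binding.

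As examples, windows of 3 called genes that hold one of these motifs are shown, from the activity lists above and the glucocorticoid list below. Each runs 5′ to 3′ on the strand of the gene, with the motif in capitals. The motifs are the CArG box 72 bases before a start of Egr2, the cAMP response element 166 bases before the start of Btg2, and the E-box 169 bases before a start of Fkbp5.
Egr2, chr10:67537316-67537615, plus strand: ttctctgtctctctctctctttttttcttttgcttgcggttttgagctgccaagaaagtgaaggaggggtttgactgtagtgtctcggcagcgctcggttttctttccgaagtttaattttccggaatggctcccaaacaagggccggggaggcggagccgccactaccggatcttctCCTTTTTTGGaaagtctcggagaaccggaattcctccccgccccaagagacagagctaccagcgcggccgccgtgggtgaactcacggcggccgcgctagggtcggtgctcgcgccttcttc
Btg2, chr1:134079106-134079405, minus strand: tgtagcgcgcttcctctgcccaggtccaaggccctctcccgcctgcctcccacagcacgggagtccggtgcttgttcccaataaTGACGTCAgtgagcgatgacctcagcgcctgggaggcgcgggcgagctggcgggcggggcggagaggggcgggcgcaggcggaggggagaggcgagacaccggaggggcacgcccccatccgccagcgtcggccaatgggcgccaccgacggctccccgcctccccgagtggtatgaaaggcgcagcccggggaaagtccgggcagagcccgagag
Fkbp5, chr17:28486100-28486399, minus strand: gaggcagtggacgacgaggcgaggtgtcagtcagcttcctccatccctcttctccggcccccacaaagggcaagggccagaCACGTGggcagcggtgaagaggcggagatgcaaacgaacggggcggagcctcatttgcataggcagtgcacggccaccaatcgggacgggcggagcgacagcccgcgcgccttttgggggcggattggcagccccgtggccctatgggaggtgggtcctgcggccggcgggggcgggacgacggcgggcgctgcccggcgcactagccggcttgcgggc
The windows of Dbp, Nr1d1, Fos, Nr4a1, Hif3a, Slc2a1 and Plin4 hold none of the CArG box, cAMP response element, D-box or E-box letters.

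Of 15 measured glucocorticoid-induced genes, 3 rose and none fell, against 0.579% called higher among all genes, with a median fold change of 0.13. Within the genotypes the median was 0.20 in P301S and 0.0059 in WT. Fkbp5, a chaperone that dampens the glucocorticoid receptor (chromosome 17, 28399095 to 28517524), had 63.7, 73.4 and 88.5 CPM in hypoxia and 46.2, 57.1 and 66.8 CPM in normoxia. It rose by 0.39 (SE 0.0656, adjusted p = 0.00414), by 0.52 in P301S and 0.27 in WT. Klf9, a transcription factor under glucocorticoid and thyroid control, rose by 0.22 (SE 0.0473, adjusted p = 0.0239). Plin4, a lipid droplet protein gene, had 7.85, 11.1 and 28.2 CPM in hypoxia and 5.61, 7.98 and 10.4 CPM in normoxia, and rose by 0.85 (SE 0.209, adjusted p = 0.0456). P301S hypoxia replicates 1 and 5, at 24.0 and 21.0 CPM, and WT hypoxia replicate 6, at 28.2 CPM, stood well above the other 9 hypoxia libraries, whose highest value was 12.9 CPM. The other 12 genes were not called, among them Tsc22d3 (0.21, adjusted p = 0.198) and Sgk1 (0.21, adjusted p = 0.322). Without the 6 libraries low in choroid plexus markers Fkbp5 alone of the 15 was called. The Plin4 call was also lost in 16 of the 23 fits with 1 library left out, under limma-voom, with the genotypes weighted equally and without the filter on low counts.

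Few members of the HIF lists were called. Of 9 measured genes of oxygen sensing, Hif3a alone was called, and of 25 HIF targets outside glycolysis, Slc2a1 alone was called, against 1.2% of all genes. The medians of the lists were -0.0028 and -0.02. Hif3a encodes a HIF alpha subunit that can act as an inhibitor of the other HIFs (chromosome 7, 17031507 to 17062427). It had 6.24, 14.1 and 29.6 CPM in hypoxia and 3.75, 5.17 and 10.8 CPM in normoxia, and rose by 1.39 (SE 0.245, adjusted p = 0.00705), the largest rise among the named genes. The spread was wide in hypoxia, and WT hypoxia replicate 6 had 27.4 CPM while the other libraries of its group had 6.24 to 13.7 CPM. That library was also the highest of its group for Plin4, Slc2a1 and Dbp. Other oxygen-sensing genes had values near 0, with 0.07 for Epas1, which encodes HIF2 alpha, and -0.04 for the hydroxylase gene Egln1.

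Slc2a1, the glucose transporter of the blood-brain barrier and a HIF target (chromosome 4, 119108711 to 119137983), had 25.2, 28.3 and 36.4 CPM in hypoxia and 17.1, 22.4 and 26.0 CPM in normoxia. It rose by 0.36 (SE 0.063, adjusted p = 0.00678). The other HIF targets of the list above were not called, including Vegfa (-0.11, adjusted p = 0.173), the carbonic anhydrase gene Car12 (-0.43, adjusted p = 0.235) and the mitophagy gene Bnip3 (-0.02). That list does not hold all known HIF targets. Among 21 measured genes of glycolysis and lactate transport none rose and 1 fell, against 0.618% of all genes called lower, with a median of 0.04. The gene that fell was Slc16a1, which encodes the lactate transporter MCT1 (chromosome 3, 104638668 to 104658462). It had 35.3, 40.0 and 48.8 CPM in hypoxia and 46.1, 50.1 and 53.0 CPM in normoxia, and fell by 0.30 (SE 0.0497, adjusted p = 0.00414). Ldha, lactate dehydrogenase A, had a fold change of 0.11 (adjusted p = 0.263). All 23 genes of oxidative phosphorylation had positive values with a median of 0.08, and none was called.

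Xdh, the gene of xanthine dehydrogenase, which ends purine breakdown (chromosome 17, 73883908 to 73950182), had 6.05, 9.64 and 15.8 CPM in hypoxia and 3.06, 4.83 and 6.16 CPM in normoxia. The lowest hypoxia library was just below the highest normoxia library. Xdh rose by 1.06 (SE 0.143, adjusted p = 0.000491). It was the only 1 of 16 genes of prostaglandin and purine enzymes to be called, against 1.2% of all genes, and the list had a median of 0.11. Ptgs2, the inducible cyclooxygenase, was not called over both genotypes (0.37, adjusted p = 0.0854), with 0.77 in P301S and -0.01 in WT.

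**Figure D3:**
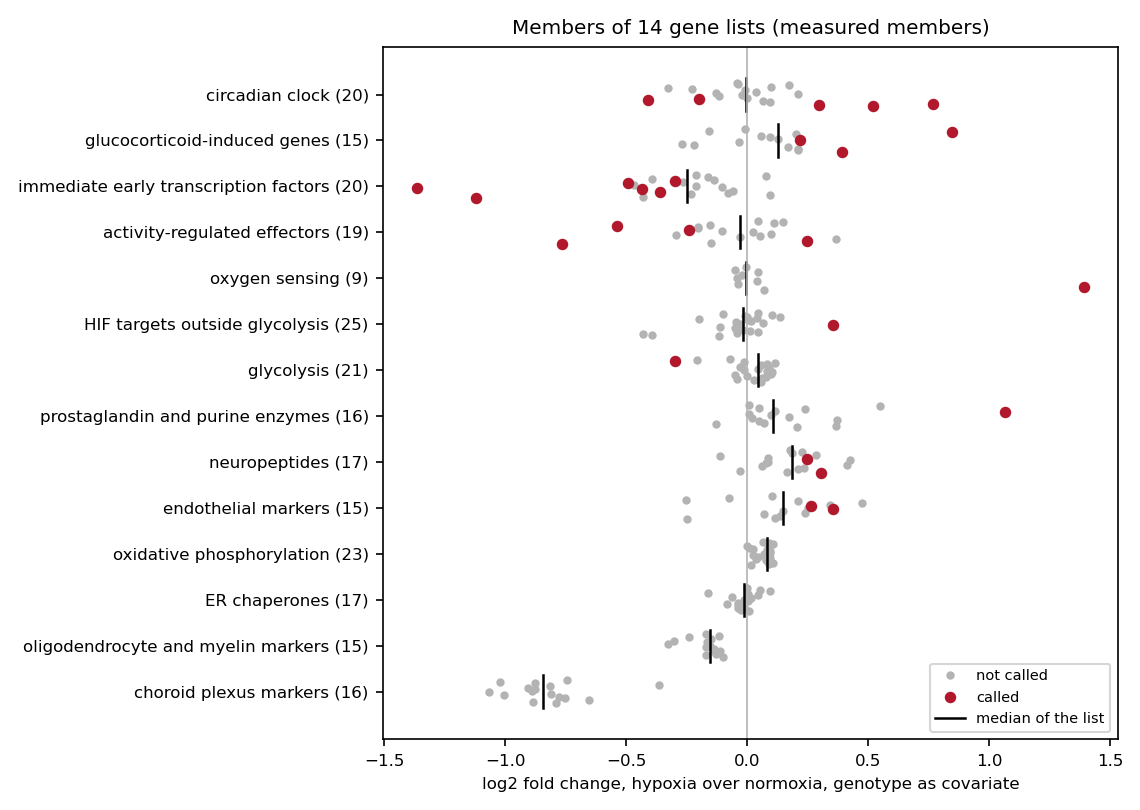
Fold change of the measured members of 14 gene lists in hypoxia over normoxia (log2, horizontal axis, genotype as a covariate), with the number of measured members in parentheses. Red points passed the test, grey points did not, and black lines mark list medians. The 6 called immediate early genes all lie left of 0, while most HIF targets and glycolysis genes lie close to 0 and the 16 choroid plexus markers all lie left of 0 with none called.

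Among neuronal genes, the neuropeptide list had 2 of 17 called, both higher, with a median of 0.19. Here and for the single calls that follow, 0.579% of all genes were called higher. The 2 called genes of this list were Npy, the neuropeptide Y gene of interneurons, and the neurotrophin gene Bdnf, already counted above among the effectors. Npy had 21.5 to 31.3 CPM in hypoxia and 15.3 to 29.1 CPM in normoxia and rose by 0.30 (SE 0.0688, adjusted p = 0.0282). The Npy difference was 0.50 in P301S and 0.14 in WT. Reln, the secreted protein reelin of Cajal-Retzius cells and interneurons, rose by 0.35 (SE 0.0797, adjusted p = 0.0323) and was the only 1 of 15 interneuron markers called. Kcna4, a potassium channel gene (0.26, SE 0.0584, adjusted p = 0.0282), was the only 1 of 20 such genes called, and Pdzd2 (0.32, SE 0.0579, adjusted p = 0.00705) the only 1 of 12 dentate granule cell markers. Markers of CA1 and of CA2 and CA3 pyramidal cells had medians of -0.01 and 0.01, with none called. Glutamate receptor genes (23, median 0.02) and genes of the GABA system (17, median 0.08) had none called, nor had markers of neocortex and subiculum (14, median -0.01) or of thalamus and habenula (12, median -0.06). The neocortex and subiculum median was -0.16 in P301S and 0.08 in WT, and that of thalamus and habenula -0.25 and 0.08. With the choroid plexus score in the model, Bdnf (adjusted p = 0.0856), Npy (adjusted p = 0.0715), Reln (adjusted p = 0.097) and Kcna4 (adjusted p = 0.0597) did not pass, with fold changes of 0.21, 0.29, 0.31 and 0.26. They were also not called without the 6 libraries low in those markers. Of the 23 fits with 1 library left out, the call was lost in 7 for Reln, 5 for Kcna4, 3 for Npy and 2 for Bdnf. The Reln call was also lost without the filter on low counts, and the Npy call without the genotype term.

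Among vascular and glial genes, 2 of 15 endothelial markers rose, against 0.579% of all genes, with a median of 0.15. These were Slc2a1 and the efflux pump gene Abcg2 (0.26, SE 0.0656, adjusted p = 0.0448), and 2 more transporters of the barrier, Abcb1a (0.25, adjusted p = 0.0638) and Mfsd2a (0.34, adjusted p = 0.0645), missed the threshold. The Abcg2 call was lost in both choroid plexus fits (adjusted p = 0.0624 with the score and 0.0607 without the 6 libraries), without the filter on low counts, and in 15 of the 23 fits with 1 library left out. The junction gene Cldn5 had a value of -0.25 (adjusted p = 0.263). Mural cell markers (13, median 0.13), astrocyte markers (15, median 0.02), homeostatic microglia markers (15, median -0.08) and disease-associated microglia markers (14, median -0.09) had none called. All 15 oligodendrocyte and myelin markers had negative values with a median of -0.15 and none called. Outside the lists, and chosen after their values were seen, 2 genes that oligodendrocytes express passed the test: the neuregulin receptor gene Erbb3 fell by 0.46 (SE 0.0881, adjusted p = 0.0108) and the semaphorin receptor gene Plxnb3 by 0.28 (SE 0.0554, adjusted p = 0.0113). Markers of tissue next to the hippocampus were lower on the median without a call: -0.85 for 16 choroid plexus markers and -0.40 for 13 ependymal markers, all members negative in both lists, and -0.21 for 15 meningeal fibroblast markers. The meningeal fibroblast median was -0.36 in P301S and 0.23 in WT. Blood cell markers (6, median -0.26) and oligodendrocyte precursor markers (9, median -0.02) had none called either. The blood cell median was -0.66 in P301S and 0.02 in WT. A choroid plexus score was formed for each library by averaging the log2 CPM of the 16 markers and centring. It ran from -2.81 to 1.54 with a median of -0.31 in hypoxia, and from -2.70 to 1.86 with a median of 1.46 in normoxia. Its part in the fold changes of other genes was not tested beyond the fits with the score as covariate and without the low libraries.

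Lists of the cell's stress responses had no called member: ER chaperones (17, median -0.01), regulators of the unfolded protein response (16, median 0.04), cytosolic heat shock proteins (22, median -0.0015), antioxidant and NRF2 targets (23, median 0.01) and inflammatory mediators (10, median -0.05). The median of the ER chaperones was 0.17 in P301S and -0.19 in WT. Genes of cholesterol synthesis and uptake (23, median 0.09), cytosolic ribosomal proteins (24, median 0.04), cold-inducible RNA-binding proteins (2, median 0.13) and angiogenesis (16, median 0.02) also had none called. A p above the threshold does not show that such genes were unchanged.

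Several genes outside these groups changed as well. Rtl3, a gene derived from a retrotransposon on chromosome X, had 2.90, 3.82 and 4.65 CPM in hypoxia and 1.12, 1.79 and 3.06 CPM in normoxia, and rose by 0.96 (SE 0.135, adjusted p = 0.000587). Galnt15, a glycosyltransferase gene, had 3.55 to 12.9 CPM in hypoxia and 1.65 to 3.14 CPM in normoxia, with no overlap, and rose by 1.22 (SE 0.231, adjusted p = 0.0105). Rasal2, which encodes a Ras GTPase-activating protein, rose by 0.27 (SE 0.0376, adjusted p = 0.000587), a small change with little spread: 136 to 163 CPM in hypoxia and 108 to 140 CPM in normoxia. Fmo2, a flavin monooxygenase gene, rose by 0.77 (SE 0.15, adjusted p = 0.0112). Asb11 (0.67), Mc4r, the melanocortin receptor 4 gene (0.62), Atp2c2 (0.58) and the Wnt ligand gene Wnt9a (0.51) rose too, all at adjusted p between 0.01 and 0.0406. Among lower genes, the long non-coding RNA Gm35552 had 0.484, 0.721 and 0.984 CPM in hypoxia and 0.947, 1.49 and 1.77 CPM in normoxia, and fell by 0.996 (SE 0.124, adjusted p = 0.000146). Gpr139, an orphan receptor gene, fell by 0.77 (SE 0.161, adjusted p = 0.0185), Tbc1d2 by 0.73 (SE 0.139, adjusted p = 0.0108) and Tnfrsf25, the death receptor 3 gene, by 0.64 (SE 0.123, adjusted p = 0.0113). Atoh8 (-0.57), Ccdc60 (-0.58), Gnrh1 (-0.53), Tent5a (-0.52), Tspan32os (-0.50), Pou2f2 (-0.30) and Iqce (-0.23) also fell, Tspan32os being an antisense gene that shares 15.7% of its length with Tspan32. The Gnrh1 call was lost in 4 of the 23 fits with 1 library left out.

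The additive model takes the effect to be equal in the genotypes, so the effect was also estimated in each. Within P301S, 73 genes (0.41%) were called, and within WT 13 genes (0.0731%). Of the 213 genes, 41 were also called within P301S, 10 within WT, 5 within both and 167 within neither. All 213 had the same sign in both genotypes, against 55.9% of all tested genes, and 177 had an unadjusted p below 0.05 in each. Both values follow in part from how the 213 were called, since the pooled test uses the same libraries. The difference between the genotypes was called for 7 genes (0.0394%), none of them among the 213, which make up 1.2% of the tested genes. At that share, so few genes would seldom overlap the 213. Of the 213, 18 (8.45%) had an unadjusted p below 0.05 for that difference, against 9.43% of all tested genes.

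**Figure D4:**
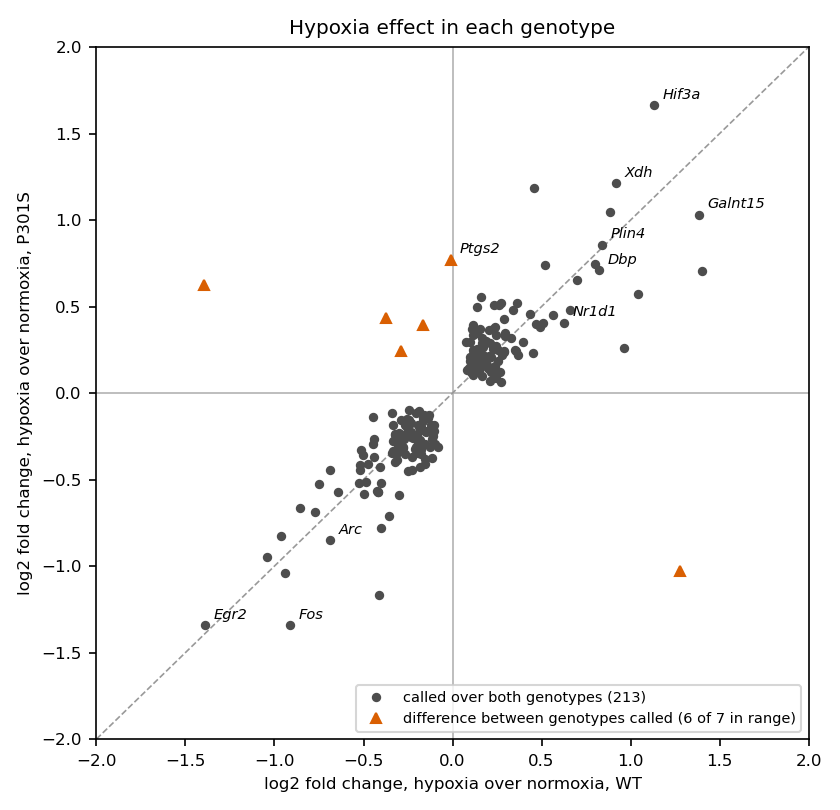
Log2 fold change of hypoxia over normoxia in P301S (vertical) against that in WT (horizontal). Grey circles are the 213 genes called over both genotypes, orange triangles 6 of the 7 genes whose effect differed between genotypes (1 lies outside the axes), and the dashed line marks equal effects. The grey circles lie along that line in the upper right and lower left, and Ptgs2 lies at 0.77 in P301S and -0.01 in WT.

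Genes called in one genotype were also read in the other, whose fold changes come from other libraries. The choice was not fully separate, since scaling, filter and the estimate of spread used all 23 libraries: without P301S normoxia replicate 3 the WT calls numbered 3 in place of 13, and without WT hypoxia replicate 4 the P301S calls numbered 36 in place of 73. Of the 13 genes called within WT, 12 had the same sign in P301S and 7 of these an unadjusted p below 0.05 there, against 13.8% of all genes with such a p in either direction. Of the 73 genes called within P301S, 60 had the same sign in WT and 28 of these an unadjusted p below 0.05, against 11.6% of all genes. An index was formed for each library as the mean log2 CPM of these genes, signed by their direction in the other genotype and centred over the libraries shown. For the genes called within WT, the index in P301S libraries had a lowest, median and highest value of 0.02, 0.15 and 0.20 in hypoxia and -0.25, -0.13 and -0.06 in normoxia. For the genes called within P301S, the index in WT libraries had -0.0018, 0.12 and 0.23 in hypoxia and -0.21, -0.09 and -0.04 in normoxia. In neither case did the conditions overlap. Across all 17788 genes (genes do not replicate one another), the rank correlation between the P301S and the WT fold changes was 0.13.

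**Figure D5:**
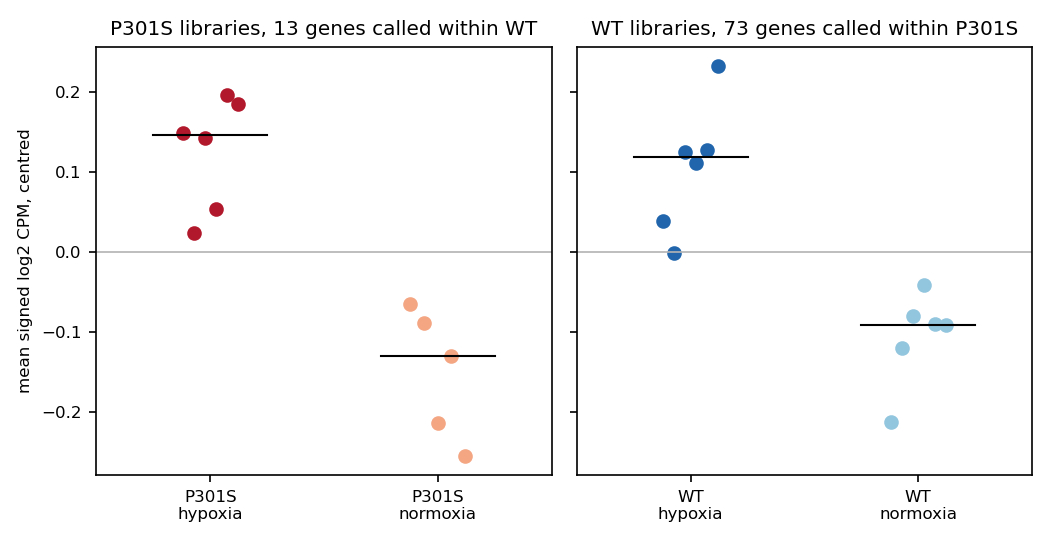
Index of genes called in one genotype, read in libraries of the other (vertical axis, mean log2 CPM signed by the direction in the first genotype and centred). Points are libraries and lines are group medians. In both panels all hypoxia libraries lie above all normoxia libraries, although the lowest WT hypoxia library is at -0.0018.

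The median gene length was 43.3 kb for higher genes, 31.8 kb for lower genes and 22.3 kb for all tested genes, and the median GC content of their longest transcripts was 47.2%, 52.9% and 49.4%. When the dependence of counts on gene length and GC content was removed library by library, 373 genes were called, 261 higher and 112 lower, of which 173 were among the 213. Under this setting 5 of the 6 immediate early genes were called, the exception being Nr4a3. The clock gene Arntl was not called either (-0.18, adjusted p = 0.0575).

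The number of called genes differed with the treatment of the choroid plexus score and with single libraries. With the score as a covariate 123 genes were called, 41 higher and 82 lower, of which 102 were among the 213. Without the 6 libraries lowest in choroid plexus markers 64 genes were called, 27 higher and 37 lower, of which 49 were among the 213. Leaving out 1 library at a time gave 83 genes without P301S normoxia replicate 3, 89 without P301S normoxia replicate 4, 125 without WT hypoxia replicate 3, 135 without WT hypoxia replicate 5, 364 without WT normoxia replicate 4 and 365 without WT hypoxia replicate 2, and within 1.5 times of 213 for the other libraries. In all 23 of these fits, 81 of the 213 genes were called, and 38 were called under each of 12 other settings. A gene that a setting did not test was counted as not called. Gm35552, for instance, was called in all 23 fits and in 11 of the 12 settings, and had no adjusted p under DESeq2. The 33 genes that met both conditions, 15 higher and 18 lower, include Dbp, Nr1d1, Xdh, Rtl3, Rasal2, Fkbp5, Slc2a1, Pdzd2, Hif3a, Galnt15 and Fmo2 among the higher genes. The lower ones include Egr2, Fos, Nr4a1, Arc, 1700016P03Rik, Slc16a1, Iqce, Nfil3, Erbb3 and Plxnb3. In the fit with the score, Dbp had a fold change of 0.80 (adjusted p = 4.72e-05), Hif3a of 1.44 (adjusted p = 0.0159), Fos of -1.19 (adjusted p = 0.00337) and Egr2 of -1.40 (adjusted p = 0.00207). Egr1 and Arntl were called in both choroid plexus fits, while many other named calls were lost in at least 1 of them. Those lost in both were Bdnf, Npy, Reln, Kcna4, Klf9, Abcg2, Sik1, Btg2 and Ccdc60. Atp2c2 was lost with the score in the model and in 15 of the 23 fits with 1 library left out. Without the 6 libraries the calls of Plin4, Asb11, Mc4r, Wnt9a, Nr1d2, Gpr139, Tbc1d2, Tnfrsf25, Atoh8, Tent5a, Tspan32os, Pou2f2, Junb and Nr4a3 were lost. That fit used fewer libraries, so a lost call need not mean a smaller change. The fold changes there were 0.96 for Plin4, 0.56 for Asb11, 0.63 for Mc4r, 0.48 for Wnt9a, -0.83 for Gpr139 and -0.48 for Tbc1d2. They were -0.57 for Tnfrsf25, -0.46 for Atoh8, -0.42 for Tent5a, -0.43 for Tspan32os and -0.29 for Pou2f2.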

How the data were processed

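Hippocampal RNA with a RIN above 9 was made into stranded mRNA libraries, per the labels' protocols. The submitters' processing notes name HISAT2, the mm10 build and DESeq2 1.6.3, and reads were counted with featureCounts 1.6.2 on Ensembl release 90, per the file headers. The deposited tables hold raw read counts per gene, taken over gene bodies that include introns, from reads with duplicates removed and without regard to strand. The members and gene lists here were chosen with earlier results of these data known.

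Counts were filtered with filterByExpr (minimum count 10), scaled by TMM (factors 0.961 to 1.03) and fitted in edgeR 4.0.16 (R 4.3.3) with its robust quasi-likelihood test, on genotype and condition, at a Benjamini-Hochberg adjusted p of 0.05. Effects within a genotype and their difference came from a model of 4 group means. CPM values are counts scaled to library size and TMM factor. The method was tested on simulated counts. The naming rule took, in each direction, the 12 largest changes among genes that averaged 1 CPM or more and the 8 lowest p, with the 4 members of lowest p from each list. Genes outside it were chosen after their values were seen: Nr1d2, Per1, Per2, Cry1, Fosb, Npas4, Jun, Junb, Nr4a3, Tsc22d3, Sgk1, Bnip3, Cldn5, Erbb3, Plxnb3 and Tex35. Within-group correlations of log2 CPM were 0.976 to 0.993, and no pair of libraries within a group was a duplicate. Pairs across groups were not checked. Alternatives included DESeq2 1.42.0, limma 3.58.1 and each library left out.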

Additional observations from a re-analysis of the deposited data

Results flagged for a closer look

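Among 44 called genes named above, 176 groups of libraries were examined for a single library standing apart, and 13 had one. Chance gives about 1 in 20 groups. In hypoxia these were Pdzd2 at 138 CPM in P301S replicate 2, Galnt15 at 8.73 CPM in P301S replicate 5 and at 12.9 CPM in WT replicate 1, and Sik1 at 16.0 CPM in P301S replicate 1. WT hypoxia replicate 1 also stood apart for Nfil3 (12.7 CPM), Btg2 (16.0 CPM) and Reln (144 CPM), and WT hypoxia replicate 6 for Hif3a (27.4 CPM) and Plin4 (28.2 CPM). Asb11 had 4.70 CPM in WT hypoxia replicate 5. In normoxia, Hif3a at 8.37 CPM and Plin4 at 6.27 CPM stood apart in P301S replicate 2, and Tbc1d2 at 23.5 CPM in P301S replicate 4.

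The effect of hypoxia differed between the genotypes for 7 genes, by the interaction term of edgeR at an adjusted p below 0.05. The log2 difference, P301S minus WT, was 0.53 for Calr, 0.81 for Hspa5 and 0.56 for Fam107a. It was 0.78 for Ptgs2 and 2.02 for Akr1e1. H2-Q2 had -4.42 and Mybpc2 -2.30.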

How the results depend on the processing

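The counts of 213 genes called over both genotypes, 73 within P301S, 13 within WT and 7 for the difference between genotypes depended on the setting. DESeq2 gave 610, 363, 151 and 52 genes in that order. No filter on low counts gave 131, 38, 4 and 4, and removal of the trend with gene length and GC content 373, 190, 20 and 0. The choroid plexus covariate gave 123 over both genotypes and 12 for the difference, and the fit without the 6 low libraries 64, 45, 0 and 0. limma-voom with the number in the library titles as a random effect gave 86 within WT. In the additive model, the estimated correlation between libraries that share that number was -0.0074. The model of group means, which gave the 86 genes, had a correlation of its own that was not recorded. Since no number occurs in both conditions, such a correlation cannot separate the number from hypoxia. The difference had 0 genes under limma-voom, with genes of at least 1 CPM and with the legacy edgeR estimate. At an unadjusted p below 0.05 the counts of 0 stood against 1654 genes (limma-voom), 1495 (at least 1 CPM), 1650 (legacy edgeR, a setting chosen after seeing the data), 1891 (trend removed) and, without the 6 libraries, 1058 for the difference and 1013 within WT. Leaving out single libraries gave 83 to 365 genes over both genotypes, 7 to 154 within P301S, 2 to 29 within WT and 0 to 13 for the difference. Values not called that changed sign were Igf2 (0.13) and Dnajc3 (0.00032) with the covariate, Wfs1 (-0.0068), Dnajc3 (0.0028) and Rbm3 (-0.0072) without the 6 libraries, Egln1 (0.0037) with the trend removed, and, with single libraries left out, Uty (-0.060 to 0.0047, positive without WT normoxia replicate 1) and Eif2s3y (-0.013 to 0.061, negative without WT normoxia replicate 4). The cause was not tested. No called gene chosen by the naming rule changed direction under these settings. A sex covariate was not run, because every library expressed Y-linked genes. No paired analysis was possible because the groups carry no replicate numbers that pair them.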
